A study of Mus musculus with 2 samples.

Results

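The regions described here are the peaks of open chromatin at the promoters of noncoding RNA genes in mouse spleen. A peak was included if it overlapped the 1 kb on either side of an annotated start of a gene of type lincRNA, antisense, processed_transcript, bidirectional_promoter_lncRNA, sense_intronic or lncRNA, and lay over 1 kb from every protein-coding start. In replicate 1 there were 1112 such peaks among 42454, and in replicate 2 there were 1578 among 60683. They made up 2.62% and 2.60% of the peaks, a mean of 2.61% ± 0.013 (SD, n = 2). Another 17350 and 19917 peaks touched a protein-coding promoter, and 23992 and 39188 touched neither kind.

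DNase-seq maps open chromatin by sequencing DNA ends left by the nuclease DNase I. Both libraries came from whole spleen of female B6CASTF1/J mice, a first-generation cross between C57BL/6 and CAST strains, at 36 days of age, with no treatment named in the labels. The labels number the females and biosamples separately but attach the same donor entry to both, so the spread between the libraries may be partly technical. They form 1 group, so no test between groups was possible, and values are given for each library. Spleen is a mixture of cell types, and a site open in fewer cells and a site opened less in each cell cannot be told apart. Promoter peaks were present in both libraries at Cd79a, Cd79b, Ms4a1, Cr2 and Pax5, genes that mark B cells, and at Lck of T cells. Only replicate 2 had one at Cd3e, also of T cells. The liver gene Alb and the pancreas gene Cpa1 were without one.

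Long noncoding RNAs are transcribed by RNA polymerase II from promoters that resemble those of protein-coding genes but on average hold fewer CpG dinucleotides and drive lower and more tissue-restricted expression. Some act in the nucleus on neighbouring genes, as Xist does when it coats and silences an X chromosome. Others are carriers, whose introns or exons are cut into small nucleolar RNAs or microRNAs. Many are known only from their annotation.

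Below are 9 of these promoters as printed examples, chosen because each covers a start site and they span the range from CpG-rich carriers to CpG-poor promoters with blood-cell consensus sequences. Each is the whole replicate 2 peak on mm10, from the RefSeq copy of that reference assembly, read 5′ to 3′ along the strand of the gene. The reference is the C57BL/6 sequence, so a CAST allele can differ from it. Capitals mark exact matches, on either strand, to 1 of 13 short consensus sequences. Those found here are TGTGGTTT (RUNX), GGGGCGGGG (SP/KLF), TATAAA (the core promoter box), CAGCTG (E2A), GCGCATGCG (NRF1), AGCCAATC (NFY), AAGATGGCG (YY1), TGACGTCA (CRE), GAGGAAGT (PU.1) and the AP-1 site, TGA then any base then TCA. A match describes the letters and does not show that a factor binds.
Snhg8: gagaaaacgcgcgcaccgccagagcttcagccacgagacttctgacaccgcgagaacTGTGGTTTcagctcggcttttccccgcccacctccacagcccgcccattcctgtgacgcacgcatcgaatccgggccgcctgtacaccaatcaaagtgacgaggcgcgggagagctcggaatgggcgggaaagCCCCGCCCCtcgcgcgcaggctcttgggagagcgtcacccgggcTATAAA
Mir22hg: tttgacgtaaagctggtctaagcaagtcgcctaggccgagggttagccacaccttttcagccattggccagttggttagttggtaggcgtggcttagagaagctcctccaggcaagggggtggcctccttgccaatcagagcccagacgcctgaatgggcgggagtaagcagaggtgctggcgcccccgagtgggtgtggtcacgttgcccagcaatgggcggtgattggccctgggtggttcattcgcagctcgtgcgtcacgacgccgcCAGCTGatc
Gm44686: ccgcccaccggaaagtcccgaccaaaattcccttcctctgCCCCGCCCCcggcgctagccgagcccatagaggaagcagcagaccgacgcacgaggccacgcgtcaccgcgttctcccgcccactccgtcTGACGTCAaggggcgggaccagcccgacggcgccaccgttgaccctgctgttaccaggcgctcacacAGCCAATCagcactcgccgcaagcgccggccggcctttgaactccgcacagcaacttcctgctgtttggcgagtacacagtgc
Ftx: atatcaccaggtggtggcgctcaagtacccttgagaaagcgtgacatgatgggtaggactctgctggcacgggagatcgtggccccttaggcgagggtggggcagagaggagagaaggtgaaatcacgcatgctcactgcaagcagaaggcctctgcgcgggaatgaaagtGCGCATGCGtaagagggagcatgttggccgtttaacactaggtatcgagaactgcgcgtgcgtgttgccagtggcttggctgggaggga
1700020I14Rik: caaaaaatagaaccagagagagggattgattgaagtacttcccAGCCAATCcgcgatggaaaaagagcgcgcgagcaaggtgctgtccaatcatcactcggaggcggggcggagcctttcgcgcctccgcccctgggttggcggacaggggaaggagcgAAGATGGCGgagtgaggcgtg
Malat1: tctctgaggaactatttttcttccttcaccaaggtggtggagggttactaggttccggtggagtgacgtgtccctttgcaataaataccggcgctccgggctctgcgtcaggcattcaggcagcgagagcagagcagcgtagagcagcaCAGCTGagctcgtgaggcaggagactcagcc
Xist: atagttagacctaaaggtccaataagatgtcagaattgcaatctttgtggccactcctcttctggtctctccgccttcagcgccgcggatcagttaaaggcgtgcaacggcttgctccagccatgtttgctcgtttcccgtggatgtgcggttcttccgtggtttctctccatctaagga
Mir142hg: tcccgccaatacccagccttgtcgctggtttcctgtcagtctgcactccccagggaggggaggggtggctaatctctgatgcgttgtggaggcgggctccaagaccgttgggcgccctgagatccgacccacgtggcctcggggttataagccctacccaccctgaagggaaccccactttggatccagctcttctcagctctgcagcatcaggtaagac
Mirt1: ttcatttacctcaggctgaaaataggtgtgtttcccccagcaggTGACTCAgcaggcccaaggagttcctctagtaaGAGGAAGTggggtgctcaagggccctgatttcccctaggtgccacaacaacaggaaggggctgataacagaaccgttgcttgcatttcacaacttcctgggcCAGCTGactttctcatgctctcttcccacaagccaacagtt

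The Snhg8 peak lies at chr3:123508361-123508600 on the minus strand with its start at base 197, and holds 26 CpG dinucleotides. Its RUNX match is upstream of the start, and its SP/KLF match covers the start. Its TATAAA match is at the very end of the printed sequence, downstream of the start. For Mir22hg the peak spans chr11:75461361-75461640 on the plus strand with the start at base 179, and holds 16 CpGs and an E2A match downstream of the start. Gm44686, at chr7:73537761-73538040 on the plus strand, has the most CpGs of the printed set, 30, and carries SP/KLF, CRE and NFY matches upstream of its start at base 253. The Ftx promoter at chrX:103622381-103622640, minus strand, holds an NRF1 match and 15 CpGs. Those of 1700020I14Rik, at chr2:119594181-119594360 on the plus strand, include NFY and YY1 matches. Malat1, at chr19:5802601-5802780 on the minus strand, and Xist, at chrX:103483161-103483340 on the minus strand, have 9 and 10 CpGs. Mir142hg, at chr11:87755401-87755620 on the plus strand, holds 9 CpGs and none of the consensus matches. At the other end, Mirt1 at chr19:53464761-53464980 on the minus strand has a single CpG, with AP-1, PU.1 and E2A matches upstream of its start at base 198.

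Few annotated noncoding genes had such a peak. Of 10120 noncoding genes, 910 (8.99%, Wilson 95% interval 8.45 to 9.57) had one in replicate 1 and 1226 (12.1%, 11.5 to 12.8) in replicate 2, whereas 53.4% and 56.9% of the 21938 protein-coding genes had a promoter peak. Intervals here and below cover counting error within a library alone. In 867 genes the peak was present in both libraries, in 43 only in replicate 1 and in 359 only in replicate 2, the library with more peaks. A further 1129 and 1180 noncoding genes had only a peak that was also at a protein-coding promoter and so fell outside the set. The remaining 8081 and 7714 had none. The difference from protein-coding genes was far larger than the spread between libraries, 2.21 and 2.49 percentage points (SD, n = 2).

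By gene type, processed_transcript genes, a class that includes many spliced carriers, had these peaks most often, in 15.7% and 19.1% of 790 genes. The 5854 lincRNA genes followed with 8.83% and 11.8%, the 2959 antisense genes with 8.14% and 11.8%, and the 327 sense_intronic genes with 7.03% and 9.48%. Intervals of the last 3 types overlapped within each library. In bidirectional_promoter_lncRNA genes, which by definition start beside a coding gene, 2.63% and 3.68% of 190 had one, and 141 and 143 of them had only a peak shared with a coding promoter. No gene of the vM21 annotation carried the type lncRNA. Counted as peaks, lincRNA starts gave 625 and 873, antisense 290 and 438, processed_transcript 163 and 218, sense_intronic 28 and 41, and bidirectional 6 and 8.

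For peaks of the set, CpG content separated the genes more widely than type did. A start was called CpG-rich if the 500 bases on each side had a GC content of at least 50% and an observed over expected CpG ratio of at least 0.6. Among 8242 noncoding genes with a start over 2000 bases from any coding start, 256 (3.11%) were CpG-rich there, against 49.2% of protein-coding genes. A peak was present at 57.0% (50.9 to 62.9) and 60.9% (54.8 to 66.7) of the CpG-rich noncoding genes but at 8.69% (8.09 to 9.33) and 12.1% (11.4 to 12.8) of the 7986 CpG-poor ones. Protein-coding genes showed the same order at a higher level, 84.4% and 87.4% when CpG-rich and 23.4% and 27.5% when CpG-poor. Within each CpG class these noncoding genes were thus still lower, by more than the counting intervals in both libraries. The protein-coding genes were not limited by distance to other starts, and the number of starts per gene was not matched.

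**Figure D1:**
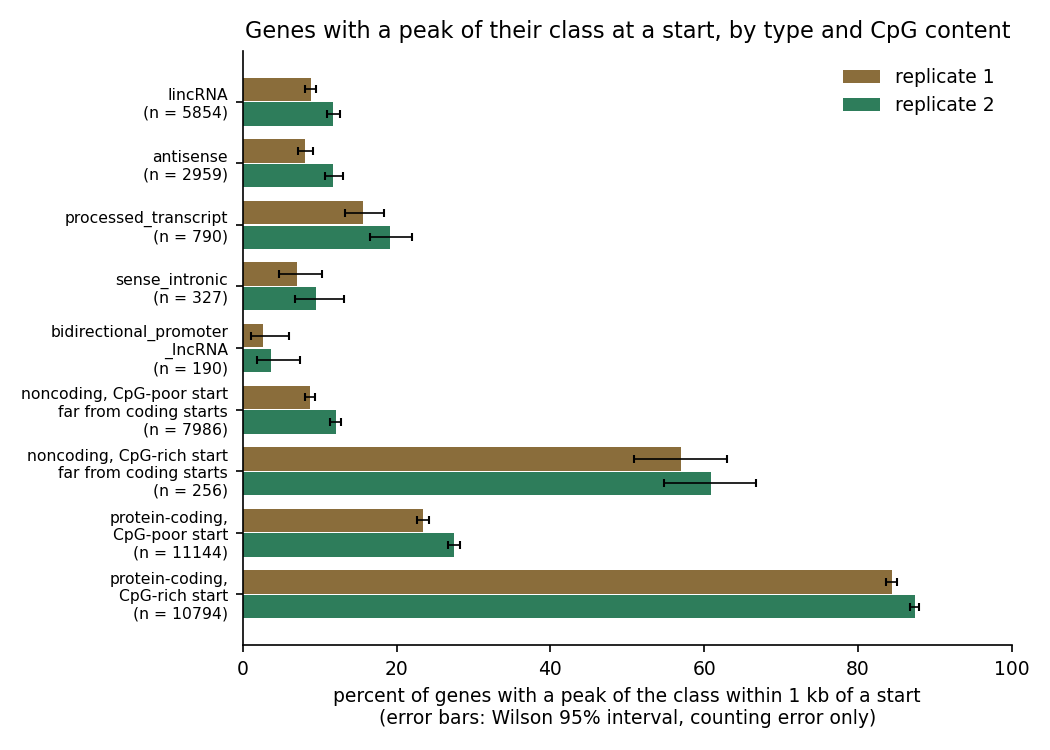
Percent of genes with a peak at a start in each spleen library, counting for noncoding genes only peaks of the set. Groups are the 5 noncoding gene types present, noncoding genes far from coding starts split by CpG content, and protein-coding genes split the same way. Bars are single libraries and error bars Wilson 95% intervals. The CpG-rich noncoding genes reach 57.0% and 60.9%, the CpG-poor ones 8.69% and 12.1%.

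In the genome, the 1 kb windows around noncoding starts that lie outside coding windows cover 18.1 Mb, or 0.664% of the sequence. They held 61.4 peaks per Mb in replicate 1 and 87.2 in replicate 2. Coding windows held 322 and 369.8 per Mb, and the rest of the genome 9.04 and 14.8. Noncoding starts thus stood between the other classes in both libraries.

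The deposited lists give each peak a signal, which is the authors' value, and peaks were ranked on it within a library, where 0% is the strongest and 100% the weakest. The noncoding promoter peaks ranked in the middle. Their median rank was 50.1% in replicate 1 and 49.1% in replicate 2, a mean of 49.6% ± 0.70 (SD, n = 2), while coding promoter peaks had medians of 25.5% and 23.8% and peaks at neither 61.3% and 58.8%. The median signals were 1.39 and 1.16, with a range from 0.348 to 41.9 in replicate 1 and from 0.0871 to 26.2 in replicate 2. Among the strongest 10% of all peaks were 73 of them in replicate 1 (6.56%) and 117 in replicate 2 (7.41%). The shares were 22.7% and 26.6% for coding promoters and 1.02% and 1.66% for peaks at neither.

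**Figure D2:**
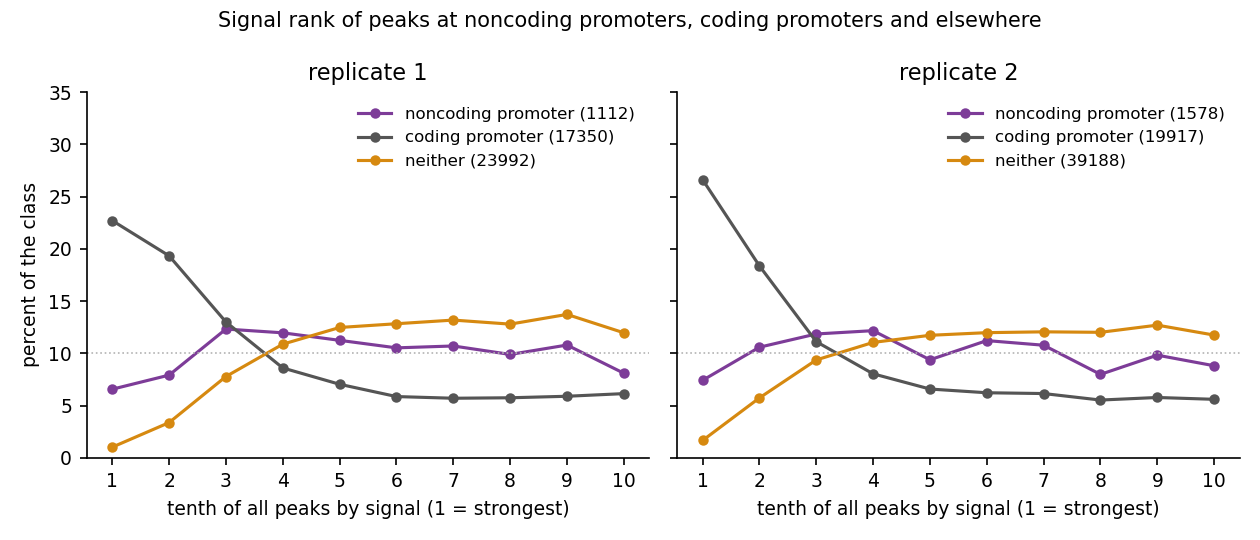
Percent of each class of peak (vertical axis) in each successive 10% of all peaks ordered by signal, where step 1 is the strongest (horizontal axis), for replicate 1 on the left and replicate 2 on the right; lines join the values of noncoding promoter, coding promoter and other peaks, and the dotted line marks an even spread. Noncoding promoter peaks run between 6.56% and 12.3% in replicate 1 and between 7.41% and 12.2% in replicate 2, below the coding promoter peaks and above the others in the strongest 10%.

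Medians also placed the set between the other classes in CpG content. In the 300 bases around the midpoint the median observed over expected CpG ratio was 0.424 in replicate 1 and 0.376 in replicate 2, against 0.789 and 0.765 at coding promoters and 0.258 and 0.241 elsewhere. Over all peaks it was 0.421 and 0.335. By the limits given above, applied to these 300 bases, 322 peaks (29.0%) and 362 (22.9%) were CpG-rich, against 74.2% and 69.4% of coding promoter peaks. The CpG-rich ones were the stronger, with median ranks of 29.1% and 26.9% against 55.7% and 52.2% for the CpG-poor ones. This gap exceeded the spread between libraries, an SD of 1.54 and 2.44 percentage points for the CpG-rich and CpG-poor medians. Of the 73 and 117 peaks in the strongest 10%, 61 and 85 were CpG-rich. Compared at the same CpG class, coding promoter peaks still ranked higher, with medians of 19.3% and 16.5% when CpG-rich and 48.9% and 46.3% when CpG-poor.

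Footprints are short stretches inside open chromatin that are protected from cutting and were called by the authors in each library. A noncoding promoter peak touched a mean of 2.40 footprints in replicate 1 and 2.95 in replicate 2, against 3.06 and 3.38 at coding promoters and 2.08 and 2.58 elsewhere. The difference between the libraries, an SD of 0.388, is as large as some of these differences between classes, but the order was the same in each library. Over all peaks the means were 2.49 and 2.85, so the set was lower in replicate 1 and higher in replicate 2. CpG-rich noncoding peaks held 3.06 and 3.53, against 3.38 and 3.74 in CpG-rich coding promoter peaks. CpG-poor noncoding peaks held 2.13 and 2.77 and CpG-poor coding promoter peaks 2.14 and 2.57, so in that class coding promoters were not higher beyond the spread between libraries. At 11.9% and 7.67% of the peaks no footprint was touched, against 18.2% and 14.2% of coding promoter peaks, 10.7% and 5.55% of peaks at neither and 13.8% and 8.45% of all peaks. The median widths were 196.5 and 200 bases, against 189 and 191 over all peaks. Coding promoter peaks had medians of 220 and 200 bases, and peaks at neither 180 in both libraries.

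The signal differed with the position around the start. The largest number of midpoints fell in the 100 bases upstream of the nearest noncoding start, 253 (22.8%) and 351 (22.2%), and the median midpoint lay at -48 and -44.5 bases. In all, 681 (61.2%) and 952 (60.3%) midpoints were upstream. Upstream peaks had median ranks of 46.6% and 43.6%, and downstream ones 54.0% and 54.3%. A start was covered by 322 peaks (29.0%) in replicate 1 and 460 (29.2%) in replicate 2, and these ranked at 37.7% and 36.6%, while peaks over 500 and up to 1000 bases away ranked at 52.9% and 53.0%. Highest of these classes were the CpG-rich peaks over a start, 129 and 147 in number, with median ranks of 21.5% and 16.8% and means of 3.80 and 4.28 footprints. Of the 4 classes by CpG content and cover of a start, CpG-poor peaks away from a start were the most numerous, 597 and 903, and they ranked at 56.9% and 55.8%.

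**Figure D3:**
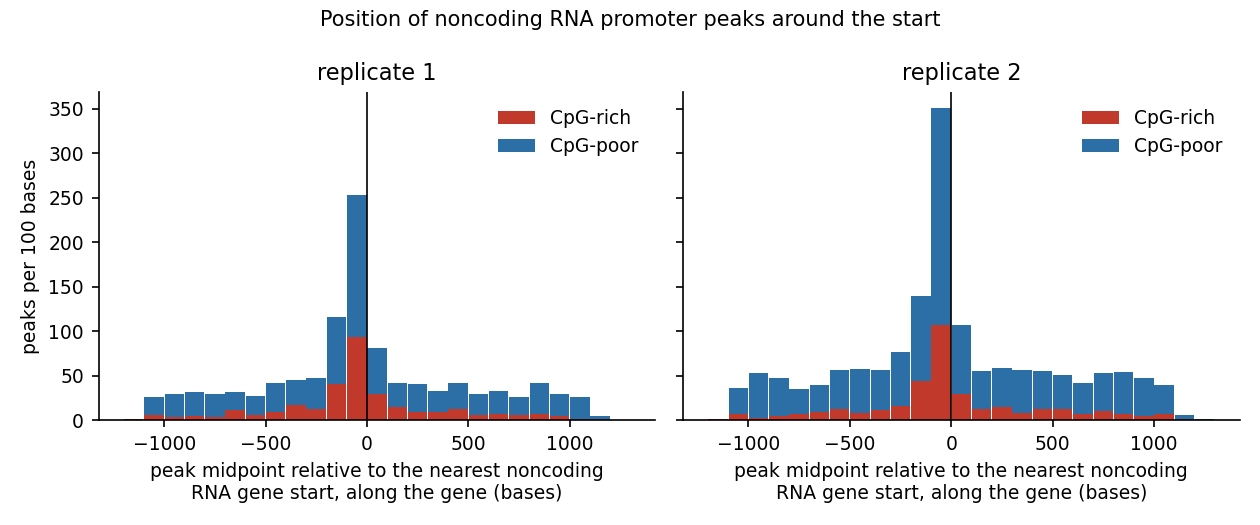
Number of noncoding RNA promoter peaks per 100 bases (vertical axis) by the position of the midpoint relative to the nearest noncoding start along the gene (horizontal axis, bases; negative is upstream), for replicate 1 on the left and replicate 2 on the right, with CpG-rich peaks in red and CpG-poor peaks in blue. The tallest bar is the 100 bases upstream of the start, with 253 and 351 peaks.

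The surroundings of the peaks were varied. The nearest protein-coding start lay at a median of 24024.5 bases in replicate 1 and 24584.5 in replicate 2, and at most 785025 bases away. Outside protein-coding genes were 807 and 1104 of the midpoints, in their introns 241 and 380, and in their exons 64 and 94. The median rank did not follow this distance in 1 direction. Peaks up to 5000 bases from a coding start ranked at 48.5% and 49.5%, those over 5000 and up to 20000 bases away at 40.8% and 39.7%, those over 20000 and up to 100000 at 51.4% and 49.6%, and those farther away at 64.8% and 61.8%. The X chromosome held 31 and 39 of them, on the weaker side with median ranks of 61.8% and 58.3%, and the Y chromosome held 0 in both of these female libraries. Repeat sequence, soft-masked in the reference, made up 50% or more of 30 and 53 peaks.

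Consensus sequences were searched on both strands in the 100 bases on either side of each midpoint, with overlapping matches allowed. The share of peaks with a match is given beside the share in peaks of the other classes. In replicate 1, 302 of the 322 CpG-rich and 743 of the 790 CpG-poor noncoding peaks overlapped a replicate 2 peak. Both libraries were thus read largely from the same reference sequences, and a difference seen in both was not found independently. Among CpG-poor noncoding peaks GAGGAAGT, the consensus of the myeloid and B-cell factor PU.1, was present in 9.49% (7.64 to 11.7) and 9.46% (7.94 to 11.2). The same letters were in 5.08% (4.47 to 5.76) and 5.57% (5.02 to 6.17) of CpG-poor coding promoter peaks and in 7.13% (6.80 to 7.48) and 8.11% (7.84 to 8.39) of CpG-poor peaks at neither. The difference from coding promoters exceeded the intervals in both libraries. That from peaks at neither exceeded them in replicate 1 alone. The AP-1 letters were in 7.34% and 8.31% of CpG-poor noncoding peaks, against 4.88% and 5.72% at coding promoters and 6.62% and 7.42% elsewhere, and the difference from peaks elsewhere lay within the intervals. The consensus sequences of RUNX, E2A, OCT and GATA factors, also active in blood cells, were at lower shares in CpG-poor noncoding peaks than in CpG-poor peaks at neither. RUNX was in 3.16% and 3.62% against 3.99% and 4.02%, and E2A in 17.2% and 18.7% against 17.5% and 19.1%. The octamer ATGCAAAT, bound by OCT factors, was in 1.90% and 1.48% against 2.37% and 2.50%, lower by more than the intervals in replicate 2. The letters AGATAAG, bound by blood factors of the GATA family, were in 2.66% and 2.96% against 2.79% and 3.94%. Apart from the octamer in replicate 2, the intervals overlapped for these 4.

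In CpG-rich peaks the order was different. The SP/KLF consensus GGGGCGGGG was in 15.2% (11.7 to 19.5) and 15.2% (11.9 to 19.3) of the CpG-rich noncoding peaks, against 21.0% and 20.1% of CpG-rich coding promoter peaks and 11.8% and 11.2% of CpG-rich peaks elsewhere. NRF1, GCGCATGCG, was present in 2.80% and 3.59% against 3.52% and 3.40% at coding promoters, and CRE, TGACGTCA, in 4.35% and 3.59% against 3.23% and 3.08%, differences within the intervals. ETS, CCGGAAGT, was in 4.35% (2.61 to 7.16) and 3.87% (2.32 to 6.39) against 7.08% (6.65 to 7.54) and 6.78% (6.38 to 7.21), intervals that also overlap in both libraries. TATAAA was in 4.66% (2.84 to 7.54) and 4.97% (3.17 to 7.72) of CpG-rich noncoding peaks but in 1.89% (1.67 to 2.14) and 1.84% (1.63 to 2.08) of CpG-rich coding promoter peaks, beyond the intervals in both libraries. It was in 2.54% and 2.37% of CpG-rich peaks at neither, within reach of the intervals in replicate 1 and beyond them in replicate 2. The octamer was in 2.17% (1.06 to 4.42) and 1.93% (0.940 to 3.94) of CpG-rich noncoding peaks, 7 in each library. At CpG-rich coding promoters it was in 0.761% (0.625 to 0.926) and 0.759% (0.628 to 0.918), beyond the intervals in both libraries. In CpG-rich peaks at neither it was in 1.82% and 1.56%, within the intervals.

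Of the peaks in replicate 1, 1045 (94.0%, 92.4 to 95.2) overlapped a peak of replicate 2, and of those in replicate 2, 1043 (66.1%, 63.7 to 68.4) overlapped one of replicate 1. Over all peaks these shares were 93.8% and 65.7%, so the noncoding promoters were found again about as often as peaks in general. With the replicate 2 peaks split by signal into 4 equal parts, from the strongest to the weakest, 98.5%, 85.8%, 55.6% and 24.6% were shared. The same split of all peaks is not given here, so these shares are not read as a trait of noncoding promoters. CpG-rich peaks of replicate 2 were shared in 83.7% and CpG-poor ones in 60.9%, and in replicate 1 the shares were 93.8% and 94.1%. The same order held in replicate 2 for coding promoter peaks, 88.1% and 67.7%, and for peaks at neither, 77.8% and 56.3%. Over the shared peaks of replicate 1 the signals had a Spearman correlation of 0.917, given as a description over 1045 peaks that share their libraries. In 785 of them the signal was higher in replicate 2 and in 260 in replicate 1. The scale of the signal is not stated, and the same count over all shared peaks is not given here. These counts are therefore not read as a trait of noncoding promoters.

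**Figure D4:**
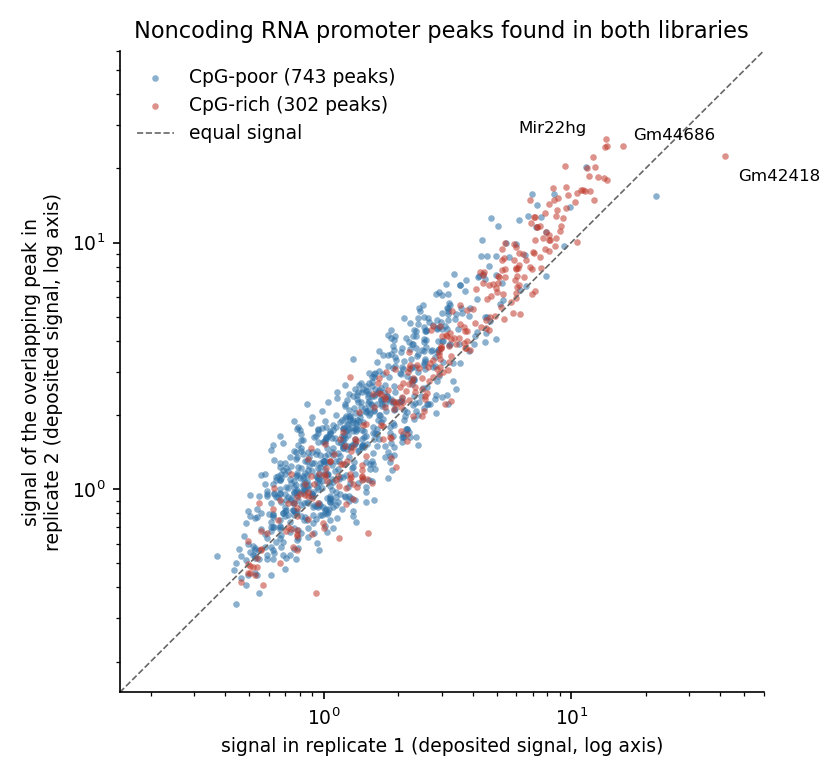
Signal of each noncoding RNA promoter peak of replicate 1 that overlaps a replicate 2 peak (horizontal axis, deposited signal, log scale) against the signal of that replicate 2 peak (vertical axis, log scale), with CpG-rich peaks in red, CpG-poor ones in blue and the line of equal signal dashed. Of the 1045 peaks 785 lie above the line, and Gm42418, with 41.9 and 22.5, lies below it.

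Peaks of a single library were mostly weak, with median ranks of 88.5% for the 67 of replicate 1 and 75.9% for the 535 of replicate 2. In the other library's longer, less stringent list 37 (55.2%) and 259 (48.4%) of them did have a counterpart. Within 250 bases of a peak of its shorter list lay 27 (40.3%) and 71 (13.3%). The same shares over all peaks of a single library are not given here. The strongest of replicate 1 alone were at Gm26901, with a signal of 6.66, at 4932412D23Rik with 4.63 and at Fbxl12os with 3.37. At Gm26901 and 4932412D23Rik this was a second peak, next to a stronger one found in both libraries, with signals of 9.53 and 13.8 at Gm26901 and of 8.56 and 15.8 at 4932412D23Rik. The strongest of replicate 2 alone were at Fbxl12os with 4.31, at Gm26541 with 4.02 and at Ifi30 with 3.11, where another peak with 4.39 and 6.85 was shared. At Fbxl12os the single-library peaks abut, since the replicate 2 peak ends at base 20607520 of chromosome 9 and the replicate 1 peak begins at 20607521. Ifi30 is known as a gene for a lysosomal thiol reductase but has the type processed_transcript in this annotation.

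The strongest noncoding promoter in replicate 1 was that of Gm42418, a lincRNA at chr17:39846781-39846920, with a signal of 41.9 (rank 3 of all peaks) in replicate 1 and 22.5 (rank 218) in replicate 2. The peak lies inside Rn18s-rs5, annotated by RefSeq as a ribosomal RNA pseudogene at chr17:39846354-39848202, and whether reads of other ribosomal RNA gene copies entered the signal was not tested. It was CpG-rich, and the next highest mean ranks also belonged to CpG-rich promoters. Gm44686, an antisense gene starting in an intron of Chd2, a gene for a chromatin remodeller, had signals of 16.2 and 24.6 (ranks 115 and 125). Mir22hg, a microRNA carrier, had 13.8 and 26.2 (ranks 309 and 67), the highest of any noncoding promoter in replicate 2.

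Next came 1700096K18Rik with 13.9 and 24.7, 1810026B05Rik with 13.8 and 24.3, 6720427I07Rik with 12.3 and 22.3, 1700028E10Rik with 12.5 and 20.2, and Gm17552 with 14.0 and 17.99. The second of these, also called Chaserr, is a noncoding gene upstream of Chd2 that is known to restrain its neighbour. Its peak at chr7:73558481 begins 16735 bases from the nearest Chd2 start, and the Gm44686 peak lies 3726 bases from one in replicate 1, so 2 of the 8 highest-ranked noncoding genes flank the same coding promoter. All 8 were CpG-rich in both libraries by the ratio and the GC content. The ratio ran from 0.632 at Mir22hg to 1.03 at Gm44686 in replicate 1. For the smaller gene types, the highest were the bidirectional Gm26839, with 3.35 and 4.10, and the sense_intronic AC154492.2, in an intron of a coding gene, with 4.33 and 8.80.

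Among the CpG-poor peaks, the strongest shared one in replicate 2 was at Mir142hg, which carries a microRNA made throughout the blood lineage. Its signal was 11.5 in replicate 1 and 20.3 in replicate 2, and it covers the start. Gm16174, an antisense gene beside Bcl3, a regulator of NF-kappa-B, followed with 6.95 and 15.8, and 4932412D23Rik with 8.56 and 15.8. Gm15564, whose replicate 2 peak was also CpG-poor, had 15.4 there but 22.0 in replicate 1, above Mir142hg in that library. Of CpG-poor peaks with a PU.1 match the strongest were at 9030404E10Rik, with 4.75 and 12.6, and at F730311O21Rik, with 6.13 and 12.4, and both cover a start. The examples in this paragraph other than Mir142hg were picked after their values were seen.

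Some promoters with many footprints were not the strongest, and their peaks were wider than the medians of 196.5 and 200 bases. At Gm47061, an antisense gene beside Tfap2a, the peak touched 8 footprints in replicate 1 and 12 in replicate 2, with signals of 2.18 and 2.98 and widths of 440 and 400 bases. Lockd, a noncoding gene downstream of the cell-cycle inhibitor gene Cdkn1b, had 11 and 7 with signals of 4.11 and 6.49 and widths of 440 and 300 bases. The 5930403N24Rik promoter, 1981 bases from a Marcks start, had 10 and 8 with signals of 0.886 and 1.47 and widths of 520 and 320 bases.

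Of the lists of known noncoding genes, 70 of 72 genes were in the annotation, and 36 had a peak of the set in replicate 1 and 42 in replicate 2. Another 8 had only a peak shared with a coding promoter in each library. The remaining 26 and 20 had no promoter peak. These shares are higher than among all noncoding genes, and the lists were drawn from well-studied genes.

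Hosts of small nucleolar RNAs, which carry these guide RNAs in their introns and are expressed in most growing cells, had a promoter peak without exception. In both libraries 11 of 16 found had one of the set and the other 5 (Gas5, Snhg1, Snhg9, Snhg18 and Zfas1) one that was also at a coding promoter. Snhg8 was the highest with 12.9 in replicate 1 and 18.4 in replicate 2. Snhg15 had 10.6 and 10.01, Snhg16 had 9.13 and 11.7, Snhg5 had 7.81 and 9.47, and Snhg3 had 7.05 and 9.06. Lower values were found at Snhg6 (5.34 and 8.68), Dancr (5.23 and 8.51), Snhg20 (4.59 and 5.92), Snhg12 (4.39 and 7.42), Epb41l4aos (3.20 and 3.80) and Snhg17 (2.77 and 3.34). These values are of the highest peak of each gene. All 11 were above 1.39 and 1.16, the median signals over single peaks of the set. The second peaks of Snhg16 and Dancr in replicate 1 had 3.28 and 1.31.

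Of 11 hosts of microRNAs, short RNAs that repress messenger RNAs, 7 had a peak of the set in replicate 1 and 8 in replicate 2. Mir22hg and Mir142hg were given above, and Dleu2, whose microRNA cluster is lost in chronic lymphocytic leukaemia, had 9.26 and 12.6 at its highest peak. Dleu2 had several annotated starts and with them 5 peaks in replicate 1 and 8 in replicate 2. Mir17hg, which carries a growth-promoting cluster, had 3.03 and 2.99. Mirlet7bhg had 1.71 and 2.31, and Mir155hg, known to be induced when lymphocytes are activated, had 1.36 and 1.02. Mir100hg had 0.865 and 0.641, and Mir99ahg 0.395 in replicate 2 alone. In both libraries Mir124a-1hg and Mir9-3hg, which carry neuronal microRNAs, and Mir670hg had no peak of the shorter lists.

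Of 6 genes listed for X inactivation, the silencing of an X chromosome in females, 5 had a peak in replicate 1 and 6 in replicate 2, at very different signals. Ftx, which promotes Xist expression, was the highest with 8.49 in replicate 1 and 14.9 in replicate 2. Jpx, another activator, had 1.94 and 3.07, and Xist itself had 1.54 and 2.03 over its start. Tsix, the antisense repressor of Xist, had 1.03 and 1.08. The more distant Firre had 0.907 and 0.851, and 4933407K13Rik had 0.492 in replicate 2 alone. The Xist peak ranked 19436 of 42454 (45.8%) in replicate 1 and 18654 of 60683 (30.7%) in replicate 2.

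Imprinted genes are expressed from 1 parental chromosome, and of 9 listed 4 had a peak in replicate 1 and 5 in replicate 2. Kcnq1ot1, a silencer of its neighbours on the paternal chromosome, had 4.20 and 7.27 over its start, and Peg13, in an intron of Trappc9, had 3.28 and 4.05. Nespas had 1.12 and 1.09 and Airn, antisense to Igf2r, had 0.897 and 0.953. Snhg14 had 0.205 in replicate 2 alone. H19, Meg3, Rian and Mirg had no promoter peak in either library, in the longer lists included. These are genes known for expression in the fetus and, for some, the adult brain or muscle.

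Of 8 broadly expressed RNAs, 6 had a peak of the set in both libraries. At Malat1, among the most abundant of nuclear RNAs, the highest peak had 13.5 and 18.3 and lay 889 bases upstream of the nearest annotated start, while the peak over the start had 7.88 and 7.35. Neat1, the scaffold of paraspeckles, had 5.97 and 7.92, at a peak closer to a start of the opposite-strand noncoding gene Frmd8os. In replicate 1 the peak whose nearest start was that of Neat1 had 0.897. Oip5os1, listed as 1700020I14Rik, had 7.56 and 7.92. Lower were 2900097C17Rik, the mouse Norad gene, with 1.45 and 1.81, and Pvt1, next to Myc, with 1.23 and 0.871. Tug1 had only a peak also at a coding promoter, and Miat none.

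Of 10 genes listed for immune cells, 3 had a peak of the set in replicate 1 and 6 in replicate 2. Mirt1 had 3.54 and 6.72 and Lockd the values above, and F630028O10Rik had 0.770 and 0.974. Gm14005, known as Morrbid and needed for the survival of short-lived myeloid cells, had 0.938 in replicate 2 alone. Ifngas1, beside the interferon gamma gene, had 0.625 and Ptgs2os2, induced in activated macrophages, had 0.482, both in replicate 2 alone. Gm16685 had only a peak also at a coding promoter. AW112010, Mirt2 and Trp53cor1 had none in the shorter lists. None of the 10 genes chosen for other tissues, such as Dlx6os1, Evx1os, Fendrr and Hotair, had a peak of the set in either library, and Hotairm1 had only one also at a coding promoter.

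**Figure D5:**
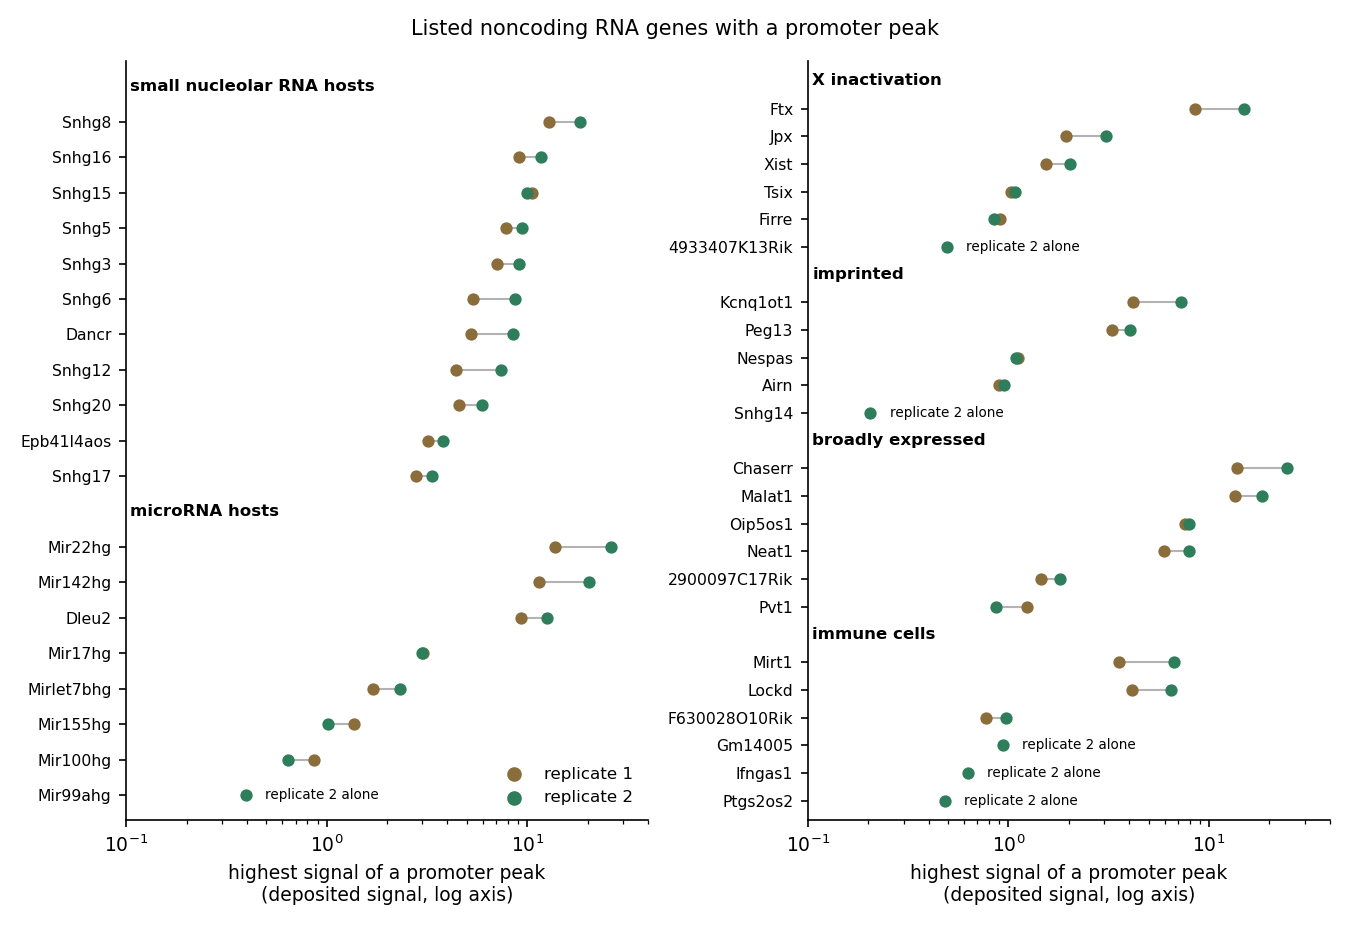
Highest signal of a noncoding promoter peak (horizontal axis, deposited signal, log scale) at each listed gene that had one, by list, with replicate 1 in brown and replicate 2 in green joined by a line. Genes with a replicate 2 peak alone are marked as such, and Snhg8, Mir22hg, Ftx, Kcnq1ot1, Chaserr and Mirt1 lead their lists in replicate 2.

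At the limits of the set values were ordinary. Just inside the coding limit were the peaks at Gm10516 in replicate 1 and Gm12764 in replicate 2, each 1007 bases from a coding start, with signals of 0.802 and 4.55. Just outside were those at Gm16537, 998 bases away with 0.739, and at Gm10584, 994 bases away with 2.60. At the noncoding limit Frmd8os was inside in replicate 1, 998 bases from the start with 1.48, and 4930413E15Rik in replicate 2, 1000 bases away with 0.564. Peg13 was outside in replicate 1, 1004 bases away with 0.760, and 4632428C04Rik in replicate 2, 1001 bases away with 1.11.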

How the data were processed

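Open chromatin was measured by DNase-seq in 2 spleen libraries. Per the deposited readme, the authors made peaks, cut rate tracks and footprints from each library's alignments on mm10, without pooling. Which aligner and callers were used, and the depth, is not given in the sources used here. Each of the deposited peak lists gives a signal per peak on a scale that is not stated, used only to describe and rank peaks. The deposited footprints and cut rate runs carry an FDR (q-value): every footprint line has 0.01, and every peak of the set touched a run under 0.001. Of the deposited lists the one with fewer lines was used, and the longer list was an alternative.

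Overlaps, with a minimum of 1 base, used GENCODE vM21 basic starts, and sequence came from RefSeq's mm10 genome (Python 3.11.15, pandas 2.3.3, pysam 0.24.0). Overlap code was tested on simulated intervals. The rest of each list was classed with coding promoters first. No test was run, since there is 1 group. Members and gene lists were chosen with earlier results of these data known. Genes named are the 8 with the best mean rank, the best of each type, listed genes with a peak and up to 4 per list without, the 3 strongest peaks of each library alone, the 3 genes with the most footprints, and peaks at the limits of the rule. Gene symbols Chaserr, Oip5os1, Snhg16, Mir100hg and Mirlet7bhg were found through synonyms, and Snhg4 and Snhg7 were not found. Peaks could overlap within a list, as 17 and 13 of the set did.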

Additional observations from a re-analysis of the deposited data

How the results depend on the processing

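Means of both libraries were recomputed under 9 alternatives, of which the cut to an equal number of peaks in both libraries was chosen after seeing the data. The mean number of peaks in the set, 1345 ± 329.5 (SD, n = 2), fell to 559 when only the 21227 strongest peaks of each library were kept, by construction. The share of all peaks, 2.61%, was 2.49% with the longer lists, 2.17% with windows of 500 bases, 3.31% with 2 kb, 2.89% with gene 5′ ends alone, 2.62% with the strongest peaks and 2.67% with equal numbers. The share of noncoding genes with a peak, 10.6%, was 13.9% with the longer lists and 4.78% with the strongest peaks. The median rank of 49.6% was 45.9%, 47.1%, 51.7%, 47.7%, 56.9% and 50.7% under those 6 settings in the same order. Footprints per peak, 2.67, were 2.26 with the longer lists and 3.62 with the strongest peaks. The median CpG ratio of 0.400 was 0.476 with 500 bases, 0.359 with 2 kb, 0.443 with gene 5′ ends and 0.507 with the strongest peaks. In these the cause was not tested, apart from settings that change the list or windows themselves. The share of peaks found in the other library, 80.0%, stayed within 1 SD under each alternative run for it, because that SD is large.

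Without replicate 1 or without replicate 2 the values are those of a single library: 1112 to 1578 peaks, 2.60% to 2.62% of all peaks, 66.1% to 94.0% shared, 8.99% to 12.1% of noncoding genes, a median rank of 49.1% to 50.1%, 2.40 to 2.95 footprints and a CpG ratio of 0.376 to 0.424. With equal numbers of peaks the shares found in the other library were 82.9% on average. No paired analysis was possible because the libraries form 1 group. Depth was not given and 2 libraries carry little information on biological spread, so peaks of a single library are not shown to be absent from the other. Sequence was that of the reference strain alone, and reads that map to repeated sequence were not examined.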

Other observations

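Some coding genes had several noncoding promoters around them, a pattern picked after the values were seen. The counts were not set against the number of annotated noncoding starts, or of all peaks, nearest to each gene. They are therefore not read as a trait of these coding genes or of their functions. Ly86, which encodes a partner of a toll-like receptor homologue on B cells and myeloid cells, was the nearest coding gene of 11 peaks in replicate 1 and 12 in replicate 2, the most of any coding gene in replicate 2. The 12 lay at 9 noncoding genes, between 19428 and 235749 bases from the Ly86 start, and 10 of them overlapped a replicate 1 peak. Their signals in replicate 2 ran from 0.564 to 4.94, with a median rank of 34.2%. Zmiz1, a transcriptional coregulator gene, was nearest to 6 and 9 peaks, and Kcnrg to 5 and 8, those of replicate 2 all at Dleu2. Cd69, an early activation marker of lymphocytes, was nearest to 5 and 6 peaks, which in replicate 2 all belonged to 2310001H17Rik, with signals from 1.51 to 8.73 and a median rank of 14.7%. Zfp36l1, which encodes an RNA-binding regulator of lymphocyte development, was nearest to 6 peaks in each library at 4 noncoding genes, with signals from 0.969 to 8.50 in replicate 2. The other coding genes nearest to 6 peaks in replicate 2 were Cxxc5, with 2 in replicate 1, and Foxn3 and Gm26992, each with 5. The peaks nearest to Gm26992 were at Jpx, Tsix and Xist.

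Gm15564, an antisense gene, had the second-highest signal of the set in replicate 1, 22.0 (rank 12 of all peaks), but 15.4 (rank 1329) in replicate 2. Like Gm42418 it ranked lower in replicate 2.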
